A study of Verbena bonariensis with 6 samples.

Results

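The G2-like proteins, also called GARP factors, are plant transcription factors that share a MYB-like DNA-binding domain. In the table of transcription factors and other regulators from leaves of Verbena bonariensis, 222 of 9740 clusters had G2-like as their only family. Clusters are the authors' numbered transcript models, and several can share 1 best match, the entry of the NR protein database that the table gives for them. The 222 clusters fell on 55 of the 3428 best matches, counting 1 cluster without an NR entry as its own. They were taken by family alone, with no filter on their levels, although earlier results of these data were known when the family was chosen. All names come from the best match, which is a protein of another species, for 186 of the 222 clusters Sesamum indicum (sesame), so they name the closest known protein and not an established gene of V. bonariensis.

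Cold and control leaves were compared, with 3 libraries of each, all from 3-month-old plants of the cultivar Finesse grown under a 16 h photoperiod at 25°C by day and 16°C by night. Cold plants spent 24 h at 4°C followed by 4 h at -4°C. Control plants were not given this treatment. The growth temperatures are those of the labels. The paper names the cultivar, but its methods give other day and night temperatures for its seedlings. The labels speak of biological replicates, but neither they nor the paper say whether each library came from separate plants, so p-values measure the spread between these libraries.

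Several branches of the family have well-known roles in Arabidopsis and other model plants. LUX, also named PCL1 there, is the DNA-binding member of the evening complex of the circadian clock. GLK proteins switch on nuclear genes for chlorophyll synthesis and light harvesting and so drive greening of the leaf. KANADI proteins specify the lower side of the leaf. PHR1 and PHR1-LIKE 1 (PHL1) direct the response to phosphate starvation, and their relative APL specifies phloem. Type-B response regulators (ARR) carry the same kind of DNA-binding domain and act at the end of cytokinin signalling.

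The table held 722556 to 791041 estimated counts in the cold libraries and 991180 to 1213366 in the control libraries, of which the 222 clusters took 8031 to 8765 and 9807 to 12215. Levels are given as FPKM, a read level corrected for cluster length and library size. Changes are log2 fold changes of cold over control from edgeR's quasi-likelihood test on the counts, adjusted by Benjamini-Hochberg over everything tested. YABBY genes, markers of leaves, summed to 54.4 to 62.8 FPKM in cold and 33.0 to 38.2 FPKM in control over 6 best matches. GLK and KANADI matches, also chosen as leaf markers, went the other way. GLK summed to a mean of 103 FPKM in cold and 120 FPKM in control, and KANADI to 18.8 and 39.8 FPKM. The best matches named as floral MADS-box genes, deficiens and AGAMOUS-like, summed to only 0.18 to 0.38 FPKM in cold and 1.59 to 2.17 FPKM in control, and no entry of the table was named for the meristem genes WUSCHEL itself and SHOOT MERISTEMLESS or for root WOX5. The part of a shift in leaf cell types in the results was not tested, and fewer cells of a type and less RNA per cell cannot be told apart in such libraries.

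G2-like genes moved in both directions in the cold. The LUX match, a GLK2 match and 11 of 18 tested APL and PHL1 matches rose, whereas the PCL1-like match, 3 of 4 KANADI matches and all 5 tested ARR matches fell. The APL-like match XP_011095855.1 and ARR2 isoform X1 count here through clusters of other families. With counts added over all clusters of a best match, 43 of the 55 matches passed the filter on low counts, and 20 rose, 17 fell and 6 did not pass the threshold of 0.05. That is 86.0% of the members tested, against 72.3% of all 2296 best matches of the table, where 34.6% were higher and 37.7% lower. Over the 43 members the log2 fold change had a median of 0.28, against -0.08 over all best matches tested. Cold and control libraries did not overlap in normalised counts for 38 members, with 20 above and 18 below control, against 36.6% above and 41.2% below among all best matches. Single clusters carried fewer reads and varied more, and 22 of 103 tested clusters were higher and 19 were lower, which is 39.8% of them against 45.5% of all 5004 clusters tested. Their median was -0.03, against -0.14 over all clusters. All cold libraries lay above all control libraries in 34 of the 103 clusters and below them in 32, against 29.6% and 34.3% of all clusters tested.

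The scaling sets where 0 lies. With whole-library totals in place of edgeR's TMM factors, the median of all best matches moved by -0.36 on the log2 scale, and the median of all clusters by -0.23. The single clusters then divided into 16 higher and 22 lower, and the summed matches into 18 higher and 18 lower. The sign of 4 tested matches changed, of which 1 had passed the threshold, the GLK1 match of sesame. Fold changes below are relative to the table, and FPKM is relative to the whole library.

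**Figure D1:**
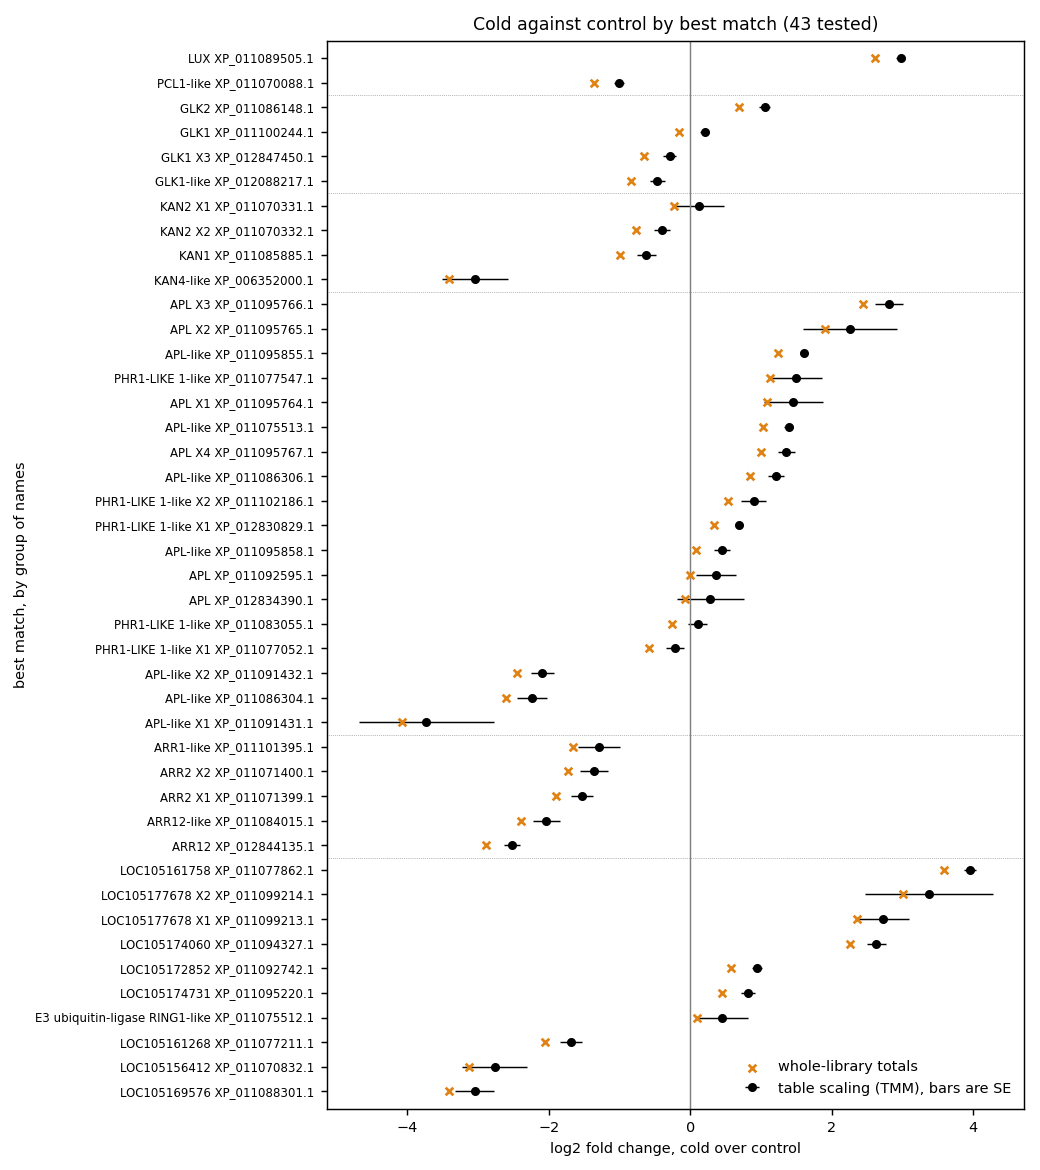
Log2 fold change of cold over control for the 43 G2-like best matches tested, grouped by name. Black points with SE bars use the scaling of the table and orange crosses whole-library totals, which lie to the left of the points throughout. The LUX match lies at 2.98 and the 5 tested ARR matches between -1.29 and -2.52.

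The LUX and PCL1-like matches went in opposite directions. LUX of sesame (XP_011089505.1, 2 clusters) had 40.7, 38.2 and 41.5 FPKM in cold leaves, against 6.68, 6.82 and 6.61 FPKM in control leaves. The groups were far apart, and replicates of a group lay close together. Its log2 fold change was 2.98 ± 0.06 (SE, edgeR adjusted p = 3.6e-09). Both of its clusters rose, by 2.59 for Cluster-14918.192672 and by 3.25 for Cluster-14918.192673 (adjusted p = 0.0012 and 0.0035). The PCL1-like match of sesame (XP_011070088.1, 9 clusters) had 11.4, 10.1 and 11.6 FPKM in cold and 32.4, 29.8 and 29.8 FPKM in control. It was the less abundant of this pair in cold and the more abundant in control, with a log2 fold change of -1.002 ± 0.07 (adjusted p = 4.7e-06). Its main cluster in control, Cluster-14918.129350, fell by 2.46 on the log2 scale (adjusted p = 0.00037), and its share of the counts of the match was 13.5% ± 3.39 in cold and 33.6% ± 1.24 in control (SD, n = 3). The remaining match, PCL1 of Erythranthe guttatus (monkeyflower, XP_012857468.1), was too low to be tested, with 0.87, 0.17 and 0.16 FPKM in cold and 1.52, 0.32 and 1.24 FPKM in control.

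LUX works together with other clock genes, which belong to other families of the table. Of 20 best matches named for LHY, REVEILLE or APRR, 18 were tested and 9 rose and 8 fell. Among all best matches tested, 34.6% rose and 37.7% fell, a background that also applies to the other lists below. APRR5, a pseudo-response regulator that represses the morning genes, stood at 204 ± 3.36 FPKM in cold and 2.75 ± 0.0839 FPKM in control (SD, n = 3; log2 fold change 7.17, edgeR adjusted across the table). LHY, a MYB factor that peaks at dawn, was at 115 ± 4.04 FPKM in cold and 326 ± 14.5 FPKM in control (log2 fold change -1.25). No entry was named for ELF3 or ELF4, the partners of LUX in the evening complex. The hour at which leaves were taken is not given in the sources used here, and its part in the levels of clock genes was not tested.

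The 4 GLK matches had 2 calls in each direction, of which 1 higher and 1 lower call, both on matches named GLK1, were lost under several alternatives. Calls among all best matches were 34.6% higher and 37.7% lower. GLK1 of sesame (XP_011100244.1, 2 clusters), a greening factor and the most abundant G2-like match of control leaves, had 50.4, 53.3 and 52.2 FPKM in cold and 55.4, 63.8 and 58.3 FPKM in control. Cold was thus lower per length and library in every replicate, while the count test, scaled to the table, put cold slightly higher at 0.20 ± 0.06 (adjusted p = 0.022). With whole-library totals the value was -0.16 (adjusted p = 0.051), and limma on log2(FPKM + 1) gave -0.18 (adjusted p = 0.027). The call was also lost without cold replicate 2, control replicate 1 or control replicate 3 (adjusted p = 0.064, 0.068 and 0.065), so no direction can be given for this gene.

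The other GLK matches are lower in level. The GLK2 match of sesame (XP_011086148.1, 10 clusters) had 25.7, 23.2 and 26.5 FPKM in cold and 15.6, 14.6 and 16.1 FPKM in control, with no overlap, and rose by 1.05 ± 0.07 on the log2 scale (SE, edgeR adjusted p = 4.7e-06). The table's Swiss-Prot column gives rice PCL1 for it, so its 2 annotations name different branches of the family. GLK1-like of Jatropha curcas (XP_012088217.1, 2 clusters) had 16.6, 17.1 and 13.2 FPKM in cold, against 29.2, 28.2 and 28.9 FPKM in control. It fell by 0.47 on the log2 scale (SE 0.11, adjusted p = 0.0048). GLK1 isoform X3 of E. guttatus (XP_012847450.1, 13 clusters) had 9.41, 9.68 and 11.2 FPKM in cold and 16.5, 15.7 and 17.9 FPKM in control. Its fold change of -0.29 ± 0.09 (adjusted p = 0.022) lost the threshold without cold replicate 1 or 2 or control replicate 1 or 3 (adjusted p = 0.082, 0.071, 0.053 and 0.091), and also with DESeq2 (adjusted p = 0.078) and with RLE factors (adjusted p = 0.075). Of all GLK matches together, the FPKM sum was 103 ± 0.551 in cold and 120 ± 2.98 in control (SD, n = 3).

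Of 10 other best matches named as light and greening regulators, 9 were tested, with 3 higher, 3 lower and 3 neither. GATA factor 22, which in Arabidopsis promotes greening beside GLK, fell in both of its matches, and the larger stood at 1.60 ± 0.328 FPKM in cold and 21.1 ± 1.26 FPKM in control (log2 fold change -3.30). PIF4 of E. guttatus, a phytochrome-interacting factor, stood at 137 ± 4.96 FPKM in cold and 33.7 ± 2.95 FPKM in control (log2 fold change 2.51).

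Summed KANADI matches were mostly lower in the cold. Of the 4 matches, 3 fell and 1 did not pass the test, against 37.7% lower among all best matches. The count is small, and 2 of the 4 are isoforms of 1 protein, KAN2. The FPKM sum of the 4 matches was 18.8 ± 3.13 in cold and 39.8 ± 0.373 in control (SD, n = 3). KAN4-like of Solanum tuberosum (XP_006352000.1), whose Arabidopsis namesake acts in the ovule integument, had 1.37, 0.86 and 0.22 FPKM in cold and 8.80, 9.43 and 10.5 FPKM in control. It fell by 3.05 on the log2 scale (SE 0.47, adjusted p = 0.00054), with 18 counts over the cold libraries. KAN1 of sesame (XP_011085885.1, 5 clusters), a repressor that marks the lower leaf side, had 10.7, 11.6 and 7.90 FPKM in cold and 17.6, 17.2 and 16.2 FPKM in control. The groups did not overlap, and it fell by 0.62 (SE 0.13, adjusted p = 0.0036). Its clusters did not fall together. Cluster-14918.70366 held 58.1%, 58.9% and 52.5% of the counts of the match in cold and 14.6%, 20.9% and 19.6% in control, and was the only one of its 4 tested clusters to pass the test, with a log2 fold change of 0.88 ± 0.28 (adjusted p = 0.0497), a call lost without any 1 library other than cold replicate 3 (adjusted p = 0.081 to 0.13).

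KAN2 appeared as 2 isoforms. Isoform X2 (XP_011070332.1) had 6.92, 6.76 and 5.34 FPKM in cold and 10.95, 11.06 and 10.42 FPKM in control, and fell by 0.40 (SE 0.11, adjusted p = 0.011). Isoform X1 (XP_011070331.1) had 2.24, 0.71 and 1.78 FPKM in cold and 2.34, 2.52 and 2.43 FPKM in control, with a log2 fold change of 0.13 ± 0.35 (adjusted p = 0.75). Added together the 2 isoforms gave -0.28 ± 0.10 (adjusted p = 0.035). The other leaf polarity genes moved both ways, with 6 of 12 tested matches higher and 4 lower. YABBY matches, which also mark the lower side, were higher in all 4 cases tested. Class III HD-Zip genes of the upper side differed between matches. ATHB-14-like stood at 17.7 ± 0.466 FPKM in cold and 36.4 ± 1.51 FPKM in control (log2 fold change -0.68). A REVOLUTA-like match (XP_011089912.1) was at -0.52 (edgeR adjusted p = 0.047), and ATHB-15 (XP_011072422.1) did not pass (0.08, adjusted p = 0.44).

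**Figure D2:**
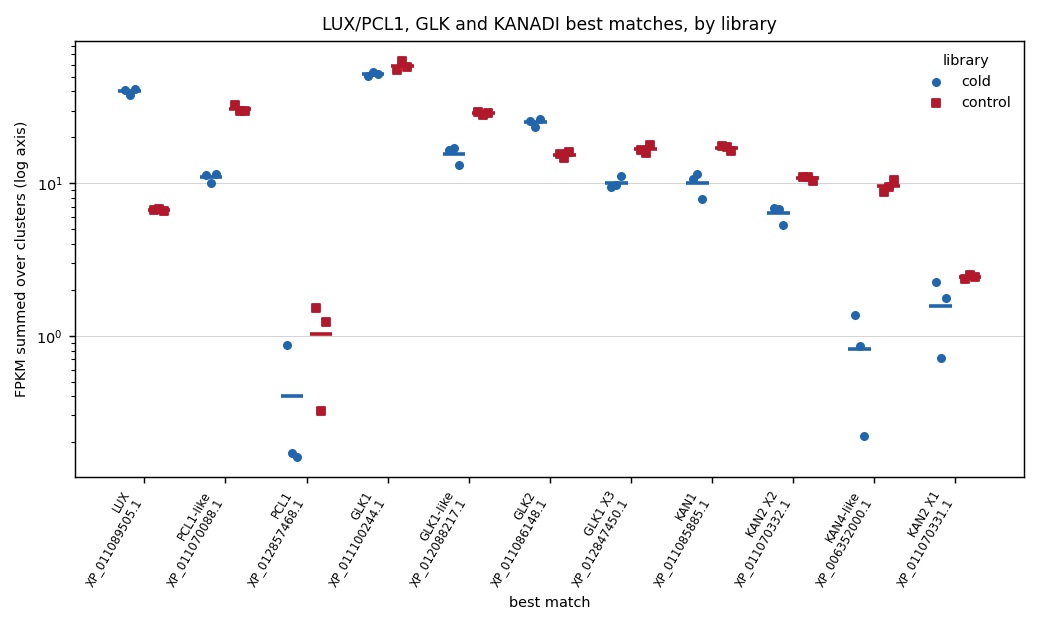
FPKM summed over the clusters of each LUX/PCL1, GLK and KANADI best match, on a log axis, with 1 point per library (blue circles cold, red squares control) and a bar at the group mean. LUX stands near 40 FPKM in cold and 6.70 FPKM in control, and PCL1-like, KAN1 and KAN4-like stand lower in every cold library than in any control library.

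The PHL1 and APL group was the largest, with 21 best matches and 92 clusters. Of 18 matches tested, 11 rose, 3 fell and 4 passed in neither direction, against 34.6% higher and 37.7% lower among all best matches. The 11 include 4 isoforms of 1 APL protein, and 2 of the 3 that fell are isoforms of another protein. Also among the 11 is XP_011095858.1, whose FPKM overlapped between groups. Its rise of 0.45 (edgeR adjusted p = 0.0059) was 0.08 with whole-library totals (adjusted p = 0.50). The FPKM of the 92 G2-like clusters summed to 164.8, 164.7 and 150.7 in cold. In control it was 201.8, 203.1 and 205.2, so every cold library was lower. With the clusters of other families that share these best matches added, the sums overlapped, at 231 ± 4.61 in cold and 228 ± 2.13 in control (SD, n = 3). The APL-like match XP_011095855.1, with all 8 of its clusters, had the highest sum of cold leaves. It had 66.6, 68.7 and 67.6 FPKM in cold and 55.1, 54.3 and 57.9 FPKM in control, and 1.60 ± 0.04 as log2 fold change of its counts (adjusted p = 1.3e-08). That rise lay in clusters that the table files under MYB. Its 3 G2-like clusters alone had 13.8, 13.7 and 13.9 FPKM in cold and 41.9, 41.6 and 44.0 FPKM in control, a fold change of -1.19 ± 0.06 (adjusted p = 8.5e-07), and took 6.44% of the counts of the match in cold and 46.0% in control. The direction for this protein thus depended on the clusters that were added.

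The next APL-like match is made of G2-like clusters alone. XP_011075513.1 (6 clusters) had 35.8, 35.5 and 32.0 FPKM in cold and 15.8, 17.7 and 17.3 FPKM in control, and rose by 1.39 ± 0.06 on the log2 scale (adjusted p = 3.6e-07). Isoform X3 of APL (XP_011095766.1, 16 clusters) had 12.02, 14.32 and 16.20 FPKM in cold and 3.22, 2.80 and 1.90 FPKM in control, and rose by 2.81 ± 0.20 (adjusted p = 5.6e-06). Isoforms X1, X2 and X4 of the same sesame protein rose as well, by 1.46, 2.26 and 1.36, although X2 lost its call without cold replicate 1 (1.60, adjusted p = 0.059). With all 4 isoforms added, APL had 31.8, 27.8 and 31.6 FPKM in cold and 10.4, 10.4 and 9.80 FPKM in control, and rose by 1.99 ± 0.07 (adjusted p = 6.3e-08).

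Other APL-like matches fell steeply. XP_011091432.1 had 5.28, 3.82 and 4.39 FPKM in cold and 26.4, 22.9 and 24.6 FPKM in control, and fell by 2.09 (SE 0.16, adjusted p = 7.9e-06). The other isoform of that protein, XP_011091431.1, carried 2 counts over the cold libraries and 55 over the control libraries, a ratio of 0.066 (exact 95% interval 0.0078 to 0.25, counting error only). XP_011086304.1 had 2.35, 2.54 and 1.47 FPKM in cold and 17.9, 16.7 and 16.2 FPKM in control, and fell by 2.24 (SE 0.21, adjusted p = 2.9e-05). The APL match XP_011092595.1, made of short clusters, had 17.9, 17.0 and 6.64 FPKM in cold and 19.6, 16.0 and 20.6 FPKM in control and did not pass the test (0.37 ± 0.28, adjusted p = 0.27). APL-named transcripts thus held both large increases and large decreases.

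Of the 5 tested PHL1 matches, named for a regulator of phosphate starvation genes, 3 rose and 2 did not pass, against 34.6% higher among all best matches. XP_011077547.1 rose by 1.497 ± 0.37 (adjusted p = 0.0068) with 2.67, 2.84 and 3.25 FPKM in cold and 1.87, 1.22 and 0.99 FPKM in control, and XP_011102186.1 by 0.90 ± 0.18 (adjusted p = 0.0024). For the most abundant PHL1 matches the result differed between counts and FPKM. XP_012830829.1 of E. guttatus had 860, 805 and 940 counts in cold and 841, 1092 and 990 counts in control. In the smaller cold libraries this was a rise of 0.70 ± 0.05 (adjusted p = 3.5e-06), but the FPKM sums overlapped, at 20.0, 18.9 and 19.8 in cold and 18.4, 19.9 and 18.6 in control, and limma on log2(FPKM + 1) gave 0.04 (adjusted p = 0.52). For XP_011083055.1 of sesame the FPKM sums were 15.6, 18.5 and 15.8 in cold and 28.9, 28.3 and 26.4 in control, while its counts gave 0.11 ± 0.13 (adjusted p = 0.49) and limma on log2(FPKM + 1) gave -0.71 (adjusted p = 9.0e-05). A sum of FPKM gives reads on short clusters more weight than a sum of counts does, and in both matches the reads lay on longer clusters in cold. FPKM is also scaled to the whole library, and with whole-library totals the counts gave 0.33 for XP_012830829.1 and -0.26 for XP_011083055.1. The parts of cluster length and scaling in the difference were not tested. Among the 25 best matches named for phosphate and nitrate regulators of other families, 17 were tested, of which 5 rose and 10 fell. WRKY6, which in Arabidopsis represses a phosphate exporter gene, stood at 141 ± 10.4 FPKM in cold and 403 ± 5.91 FPKM in control (log2 fold change -1.17), and NLP5-like, a NIN-like factor of nitrate signalling, at 92.3 ± 1.93 FPKM in cold and 48.4 ± 0.933 FPKM in control (log2 fold change 1.33).

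Every tested match named as a type-B response regulator fell. These were 5 of 5, against 37.7% of all best matches of the table, and 2 of the 5 are isoforms of 1 protein, ARR2. With the untested EHD1-like match included, the FPKM of the 6 matches summed to 15.4, 17.8 and 17.9 in cold and 86.0, 88.2 and 89.3 in control. Swiss-Prot names the Myb family factor At1g14600 for ARR1-like and KAN2 for EHD1-like, so the annotations of each name different proteins. ARR12 of E. guttatus (XP_012844135.1), a cytokinin-response factor, had 3.45, 4.55 and 5.19 FPKM in cold and 35.8, 36.1 and 34.8 FPKM in control, and fell by 2.52 (SE 0.12, edgeR adjusted p = 3.6e-07). ARR2 isoform X2 of sesame (XP_011071400.1) had 5.03, 7.10 and 7.79 FPKM in cold and 20.4, 24.6 and 23.4 FPKM in control, and fell by 1.36 (SE 0.20, adjusted p = 0.00037). ARR12-like, ARR2 isoform X1 and ARR1-like fell by 2.03, 1.53 and 1.29. In 3 of the 6 ARR matches some counts came from clusters filed under ARR-B rather than G2-like. The G2-like clusters alone fell by 2.23 in ARR12 (adjusted p = 1.3e-06) and by 1.65 in ARR12-like (adjusted p = 0.00052). For ARR2 isoform X1 the fall lay in an ARR-B cluster, since its only G2-like cluster was too low to be tested and took 0% of the counts in cold and 3.06% in control. A pair of uncharacterized sesame proteins that Swiss-Prot names ARR14 and ARR11 also fell. The first (LOC105169576) had 0.97, 0.70 and 1.51 FPKM in cold and 12.1, 13.1 and 16.0 FPKM in control (-3.05 ± 0.27, adjusted p = 2.0e-05). The second (LOC105156412) had 9 counts over the cold libraries and 114 over the control libraries (-2.77 ± 0.46, adjusted p = 0.00086).

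Among the remaining uncharacterized matches, 6 rose and 1 fell, and a match described as E3 ubiquitin ligase RING1-like did not pass (0.45 ± 0.37, adjusted p = 0.30). With the ARR14 and ARR11 pair included, 6 of 10 tested matches rose and 3 fell, against 34.6% and 37.7% of all best matches. Of the 6, 2 are isoforms of LOC105177678. The steepest increase of all tested G2-like matches was that of LOC105161758 (XP_011077862.1, 9 clusters), which Swiss-Prot names APL. It had 24.1, 25.6 and 26.8 FPKM in cold and 2.15, 2.14 and 1.99 FPKM in control, and rose by 3.96 ± 0.09 (adjusted p = 5.3e-09). LOC105174060, also named APL there, had 8.78, 9.15 and 10.3 FPKM in cold and 1.77, 2.19 and 1.95 FPKM in control (2.63 ± 0.14, adjusted p = 7.4e-07). For LOC105172852, which Swiss-Prot names rice PCL1, the values were 58.6, 62.8 and 68.3 FPKM in cold and 40.9, 34.4 and 36.7 FPKM in control (0.95 ± 0.07, adjusted p = 4.6e-06). This was the second most abundant G2-like match of cold leaves.

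Both isoforms of LOC105177678 were low and rose, by 2.72 and 3.38, and together they had 2.96, 4.98 and 3.89 FPKM in cold and 0.91, 0.64 and 0.60 FPKM in control (2.97 ± 0.25, adjusted p = 1.3e-05). LOC105174731 had 12.2, 14.6 and 14.7 FPKM in cold and 9.94, 9.73 and 10.7 FPKM in control (0.81 ± 0.10, adjusted p = 0.00012). The match that fell was LOC105161268, which Swiss-Prot names rice GLK1. It had 6.89, 4.96 and 6.69 FPKM in cold and 25.9, 23.9 and 25.4 FPKM in control (-1.69 ± 0.15, adjusted p = 2.2e-05).

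**Figure D3:**
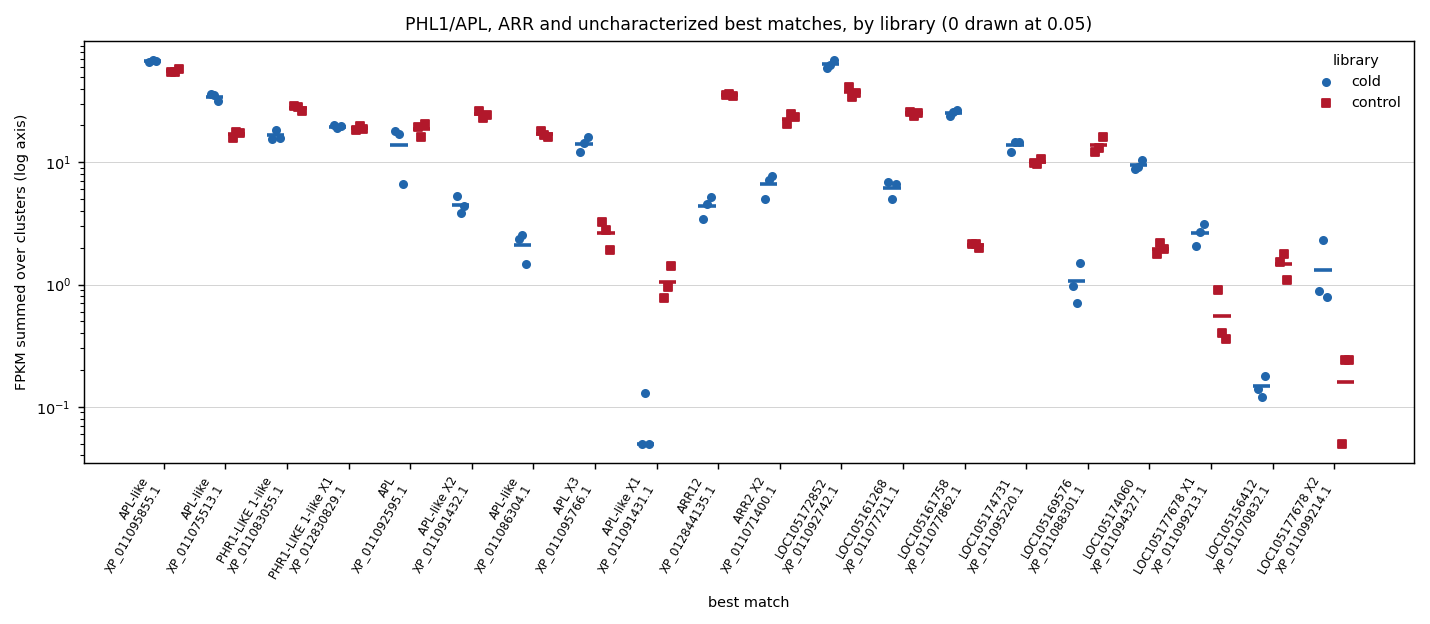
FPKM summed over the clusters of each named PHL1/APL, ARR and uncharacterized best match, on a log axis, with 1 point per library (blue circles cold, red squares control), a bar at the group mean and 0 drawn at 0.05. The APL-like match XP_011095855.1 is highest in cold at 67.7 FPKM, of which its G2-like clusters make up 13.8 FPKM, and LOC105161758 stands at 25.5 FPKM in cold and 2.09 FPKM in control.

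The order of levels, summed over all clusters of a match, changed between the conditions. In cold leaves the APL-like match XP_011095855.1 (67.7 ± 1.05 FPKM) and LOC105172852 (63.2 ± 4.89 FPKM) came first and overlapped each other. GLK1 (52.0 ± 1.45), LUX (40.1 ± 1.73) and the APL-like match XP_011075513.1 (34.4 ± 2.15) followed, each apart from the next (SD, n = 3). In control leaves GLK1 (59.1 ± 4.28 FPKM) and the APL-like match (55.7 ± 1.90) came first and overlapped, followed by LOC105172852 (37.3 ± 3.29), ARR12 (35.6 ± 0.673) and PCL1-like (30.7 ± 1.504). LOC105172852 and ARR12 also overlapped in control. By its mean, ARR12 ranked 27 of the 55 in cold and 4 in control. Clusters of other families count towards some of these places, and over G2-like clusters alone the APL-like match XP_011095855.1 had 13.8 ± 0.121 FPKM in cold and 42.5 ± 1.31 FPKM in control, and ARR12 had 3.40 ± 0.356 FPKM in cold and 21.2 ± 2.10 FPKM in control.

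Within a best match, clusters did not always move together. Several of the steepest single clusters had counts in 1 condition alone. Cluster-14918.53874, of the PHL1 match XP_011083055.1, had 99, 110 and 78 counts in cold and 0 after rounding in control. If 3 counts over the whole control group are taken as the limit of detection, this is an increase of at least 160-fold. Cluster-14918.165700, of LOC105172852, had 48, 94 and 162 counts in cold and 0 in control, at least 166-fold higher. The summed matches of these clusters moved far less, by 0.11 and 0.95 on the log2 scale. In the other direction, Cluster-14918.89143 of KAN2 isoform X2 had 0 counts in cold and 74, 44 and 60 in control, at least 36.5-fold lower, and Cluster-14918.186730 of LOC105169576 had 1 count over the cold libraries and 160 over the control libraries, a ratio of 0.010 (exact 95% interval 0.00026 to 0.059). Of the 41 clusters called, 11 lost the call when some library was left out.

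Among G2-like clusters, opposite calls stood inside 2 best matches, both named PHL1. The APL-like match XP_011095855.1 also held calls both ways once other families were included, since its MYB Cluster-14918.77064 rose by 2.18 (adjusted p = 0.0038) and its G2-like Cluster-14918.135752 fell by 1.34 (adjusted p = 0.00017). In XP_011083055.1 the long Cluster-14918.53874 (3272 bases) was higher, whereas Cluster-14918.71004 (1454 bases) had 37, 54 and 64 counts in cold and 321, 399 and 403 counts in control and fell by 2.13 (adjusted p = 0.00061). Cluster-14918.174504 of the same match fell by 2.21 (adjusted p = 0.025), a call lost without cold replicate 3 or any 1 of the control replicates (adjusted p = 0.054 to 0.073). In XP_012830829.1, Cluster-14918.92851 (3879 bases) had 698, 675 and 853 counts in cold and 525, 694 and 631 counts in control and had a log2 fold change of 0.999 ± 0.08 (adjusted p = 0.00027). Cluster-14918.92853 (1915 bases) had 76, 81 and 79 counts in cold and 237, 323 and 261 counts in control and fell by 1.06 (SE 0.14, adjusted p = 0.0023).

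As shares of the match, Cluster-14918.92851 held 85.3% ± 4.90 in cold and 63.2% ± 0.695 in control, and Cluster-14918.92853 held 9.10% ± 0.889 in cold and 28.0% ± 1.60 in control (SD, n = 3). The shares did not overlap, but with 3 libraries against 3 the exact two-sided permutation test cannot go below p = 0.1, which is the value it gave. A shift of the same kind was seen in the GLK1-like match of J. curcas, where Cluster-14918.90309 held 61.2% ± 1.81 in cold and 35.4% ± 1.18 in control, and its near-equal partner Cluster-14918.90310 the rest. Only Cluster-14918.90310 passed the test of the 2 (-1.33 ± 0.19, adjusted p = 0.0026), and that Cluster-14918.90309 (0.19, adjusted p = 0.43) did not pass is no test of the difference. In the APL-like match XP_011095855.1 the G2-like Cluster-14918.135752 (1084 bases) held 5.86% ± 0.386 in cold and 41.3% ± 0.887 in control. Its long MYB clusters varied between replicates, with Cluster-14918.135751 at 77.9%, 12.4% and 85.3% in the cold libraries and Cluster-14918.139301 at 6.85%, 74.1% and 1.57%. These 2 clusters, of 3445 and 3460 bases, traded reads between libraries of the same group. How the authors' program divided reads between such similar clusters was not tested.

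**Figure D4:**
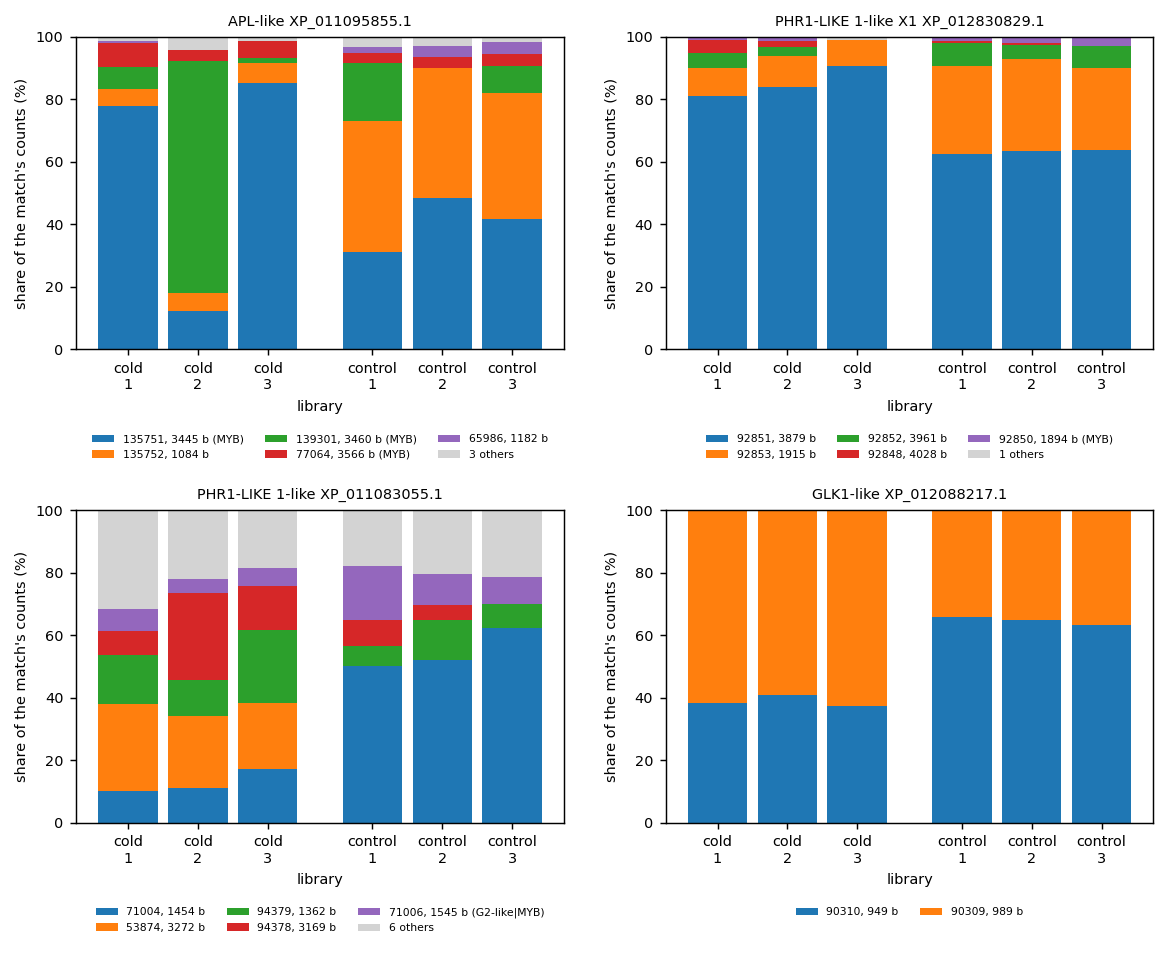
Share of the counts of 4 best matches held by each of their clusters in the 3 cold libraries (left) and the 3 control libraries (right), with cluster length in bases and, where it is not G2-like alone, the family. In the APL-like match the orange 1084-base cluster holds 5.86% in cold and 41.3% in control, and cold replicate 2 differs from the other cold libraries in which long MYB cluster takes the reads.

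Reads of G2-like clusters lay on longer clusters in the cold. The mean cluster length, weighted by counts, was 1982, 1973 and 1945 bases in cold and 1667, 1687 and 1672 bases in control over the 222 clusters. Over all other clusters of the table it went the other way, at 1998, 1982 and 1991 bases in cold and 2146, 2133 and 2142 bases in control, and each difference had an exact permutation p of 0.1, the smallest possible. This mean also moves when a gene with long clusters rises. Looking within best matches, over their clusters of all families, 34 G2-like matches had more than 1 cluster and at least 10 counts in every library. Of these, 11 (32.4%) were longer in every cold library than in any control library and 6 (17.6%) shorter, against 25.3% and 18.4% of all 1281 such matches of the table, so the G2-like matches stood near the background. The largest shifts were 933 bases in the APL-like match XP_011095855.1 and 759 bases in the PHL1 match XP_011083055.1. Both matches include clusters filed under MYB, and the G2-like clusters of XP_011095855.1 alone are only 1084, 1182 and 1538 bases long.

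**Figure D5:**
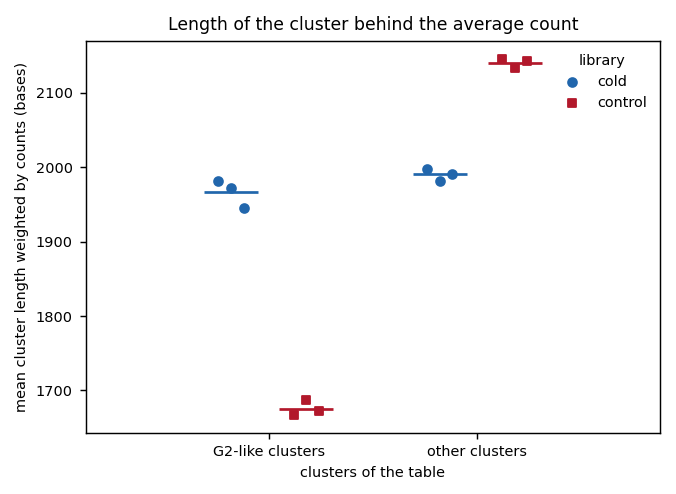
Mean cluster length in bases, weighted by the counts of each library, for the G2-like clusters and for all other clusters of the table, with 1 point per library (blue circles cold, red squares control) and a bar at the group mean. G2-like reads lie at 1945 to 1982 bases in cold and 1667 to 1687 bases in control.

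The 12 matches that were not tested were low in both groups, with at most 2.18 FPKM in any library. They included EHD1-like of Medicago truncatula, named for a response regulator of flowering in rice, with 0 counts in cold and 1, 10 and 25 counts in control, and 2 PHL1 matches of different sesame proteins, isoform X2 XP_011078839.1 with 0 counts in cold and 4 to 12 counts in control and isoform X3 XP_011102187.1 with 0 counts in cold and 10 to 25 counts in control. In each of these 3 the libraries did not overlap, but the counts are few. The same held for the sesame match named At1g14600 (XP_011070508.1), with 0, 1 and 0 counts in cold and 13, 26 and 9 in control. Of the 222 clusters, 119 were left out by the filter on low counts, and their median length of 1567 bases was close to the 1569 bases of those tested. A further 13 clusters carried G2-like together with a second family and were not counted as members, and 24 clusters of another or a second family entered the sums of 13 best matches.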

How the data were processed

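RNA of 6 leaf libraries was sequenced from cDNA made with an Illumina TruSeq kit. The labels assign libraries to cold and control. The authors deposited 1 table of transcription factors and regulators, with estimated counts, neither normalized nor always whole, and FPKM scaled by the authors to cluster length and to the whole library. Its 10251 lines hold 9740 clusters, as 492 stand on several lines with the same values. The submitters' processing notes name Bowtie2 2.0.6 and TopHat2 2.0.12. The sources used here do not give their roles, the assembler or the counting program. The columns of the authors' own comparison (fold changes, p-values and q-values) were not used, and all library columns could be assigned.

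Counts were rounded and tested across the whole table with edgeR 4.0.16 in R 4.3.3 (quasi-likelihood test, TMM factors, filterByExpr with a minimum count of 10, group as the only term, Benjamini-Hochberg over 5004 clusters or 2296 sums, threshold 0.05). SE was the log2 fold change divided by the root of F. The biological coefficient of variation was 0.639 for clusters and 0.157 for sums. Totals of the whole libraries, derived from FPKM, counts and cluster lengths, were 13075583 to 14320468 in cold and 16949701 to 20694138 in control, so that 3 counts equal 0.209 to 0.229 and 0.145 to 0.177 CPM. Intervals and floors cover counting error only. Replicates differed by more than sampling noise, with a chi-square per feature of 10.3 to 12.6 for clusters and 4.22 to 4.98 for sums. Alternatives were DESeq2 1.42.0, RLE factors, no filter and a stricter one (10 counts in every library of a group), whole-library totals, a replicate block, limma 3.58.1 on log2(FPKM + 1) and log2(FPKM + 0.1), leaving out each library, a threshold of 0.01, and sums over G2-like clusters alone. Sums over protein isoforms were added after the data were seen. The procedure was run on simulated data with 200 changed features. As 2276 clusters and 1661 sums were called in the real data, that run does not test the scaling. Summaries used Python 3.11.15, pandas 2.3.3, numpy 2.4.6, scipy 1.17.1 and matplotlib 3.10.9.

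The members and lists were chosen with earlier results of these data known. Named matches were all GLK, LUX and KANADI matches of at least 1 FPKM, the 6 most abundant of each other group, and the 6 with the largest change in each direction. Named clusters were the 5 with the largest change in each direction, the most abundant of each named match and those with opposite calls within a match. Other matches named in the text were chosen after their values were seen.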

Additional observations from a re-analysis of the deposited data

How the results depend on the processing

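The counts of summed matches stayed within 1.5 times under every alternative. They ranged from 16 to 20 higher and from 15 to 21 lower, and leaving out 1 library gave 19 to 20 higher and 16 to 17 lower. Counts of single clusters moved more. With the replicate block 14 were higher and 12 lower, an adjusted p under 0.01 gave 12 higher, and limma on log2(FPKM + 1) and log2(FPKM + 0.1) gave 35 and 29 lower. Leaving out 1 library gave 18 to 21 higher and 16 to 23 lower. The replicate numbers did not pair the libraries, since same-numbered libraries had correlations of -0.030, -0.014 and -0.005, and the summed matches under the block were again 20 higher and 17 lower.

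For the 65 named features, 880 of 940 alternative values kept their side of the threshold, 10 of them with the other sign but no call in either fit, 47 lost the call, 5 gained it and 8 reversed. Reversed values were -0.71 and -0.74 for the PHL1 match XP_011083055.1 and -0.18 and -0.18 for GLK1 with limma on log2(FPKM + 1) and log2(FPKM + 0.1), -0.16 for GLK1 with whole-library totals, -0.20 and -0.20 for its Cluster-14918.90305 with the same limma fits, and -1.19 for the APL-like match XP_011095855.1 over its G2-like clusters alone. The cause was not tested. Low counts kept 119 clusters and 12 matches out of the tests, and what greater depth would change was not tested.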
